A study of Homo sapiens with 12 samples.

Results

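Glutathione transferase genes outside the alpha class, 10 in all, were followed in ARPE-19 cells that carried different open reading frames (ORFs). They were chosen by name, as the lines of the deposited count table whose gene symbol was GSTM2, GSTM3, GSTM4, GSTP1, GSTO1, GSTK1, GSTZ1, MGST1, MGST2 or MGST3. All 10 were found, each on 1 line, among 40591 lines with a symbol and 60605 lines in all. ARPE-19 is an established human cell line derived from the retinal pigment epithelium, the cell layer behind the photoreceptors. Poly(A) RNA of 12 libraries was sequenced, with 3 libraries in each of 4 groups. In the WT group the labels name no ORF. The other groups were stable cells after 4 days of ORF expression, with GFP as the control ORF, GSTA4 (an alpha class transferase) in another group, and OSK in the last. OSK is read here as the reprogramming factors POU5F1, SOX2 and KLF4, whose RNA was high in that group. Nothing in the labels tells if libraries that share a group are from separate cultures or lines. P-values therefore measure the spread between these samples, which may be technical, and an effect of the ORF and other differences between the cell lines cannot be told apart.

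Glutathione transferases join the tripeptide glutathione to reactive, electron-poor molecules, which are then exported from the cell and broken down. The cytosolic enzymes form classes, among them mu (GSTM genes), pi (GSTP1), omega (GSTO genes) and zeta (GSTZ1), while the kappa enzyme GSTK1 sits in mitochondria and peroxisomes. The MGST genes belong to an unrelated family of membrane proteins, called MAPEG. In the retinal pigment epithelium these enzymes handle products of lipid oxidation, and several of their genes carry antioxidant response elements, the DNA sites of the transcription factor NRF2.

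Total counts ran from 12630675 to 17045454 per library, so that 3 reads, the upper limit behind a count of 0, equal 0.177 to 0.239 CPM (reads scaled to the same total in each library). GFP replicate 1 stood apart, with the lowest total and the largest share of reads on lines without a symbol (0.822%). It had reads on 27349 lines with a symbol, where the other libraries had 19488 to 22073. GSTA4 RNA was 416 ± 17.6 CPM (SD, n = 3) in the GSTA4 group and 8.79 ± 0.849 CPM in GFP, with no measure here of how much came from the ORF and how much from the native gene. In OSK, POU5F1 was at 779 ± 26.8, SOX2 at 628 ± 5.02 and KLF4 at 928 ± 18.9 CPM, and in every library of the other groups each was under 3 CPM. Of 15 retinal pigment epithelium markers, 11 passed the filter on low counts, and RPE65, DCT, TTR and CRX did not. CRX was at 0 in WT and GSTA4, and TTR was at 0 in GSTA4. Against GFP, 8 of the 11 were lower in GSTA4, where 14.6% of all lines tested were lower. In OSK 10 were lower, where 22.8% of all lines were, and 1 was higher. Against WT, 8 were higher and 2 lower in GFP, where 22.2% of all lines changed in either direction. In GSTA4 3 were higher and 6 lower than in WT, where 38.6% of all lines changed. In OSK 3 were higher and 5 lower than in WT, where 45.4% of all lines changed. The summed level of all 15 was 2420.3 to 2660.4 CPM in WT, 2189.8 to 2521 in GFP, 1565 to 1634 in GSTA4 and 1402 to 1469 in OSK. KRT8 was the largest part of that sum, with means of 1247, 843, 679 and 501 CPM in the same order. KRT18 had means of 432, 314, 292 and 228 CPM. Both keratin means fell from WT to GFP, where 8 markers rose. Fibroblast markers summed to 787 to 801 CPM in WT, 731 to 801 in GFP, 553 to 588 in GSTA4 and 352 to 409.8 in OSK. PDGFRB carried most of that sum, with means of 651, 660.0, 539 and 343 CPM in the same order. LUM was at 0 in all libraries, and COL1A2, COL3A1, DCN, PDGFRA and THY1 had group means of at most 0.479 CPM. ACTA2, at 17.8 CPM in GFP, was higher in GSTA4 (log2 0.43, edgeR adjusted p = 0.0494), while COL1A1, FAP and PDGFRB were lower there. Pluripotency markers other than the expressed factors summed to 149.9 to 188 CPM in WT, 438 to 527 in GFP, 35.1 to 43.0 in GSTA4 and 96.4 to 108 in OSK. Nearly all of that was 1 gene, PODXL, with means of 174, 471, 35.6 and 99.0 CPM in the same order. DNMT3B had means of 1.19 to 2.61 CPM, UTF1 was at 0 in all libraries, and the other 7 had group means of at most 0.266 CPM. The part of these marker differences in the transferase results was not tested. In bulk RNA, fewer cells of a type and less RNA per cell cannot be told apart.

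The 250 bases before the RefSeq start are shown for GSTO1 and GSTP1, which matched the antioxidant core, and for the 3 mu genes, whose base composition differs. They come from RefSeq on GRCh38.p14 and are written 5′ to 3′ along the gene, in lower case with motif matches in capitals. RefSeq promoters were matched by symbol for 9 of the 10 members, and none was matched for MGST2. The gene coordinates given further below are from GENCODE v29, whose starts can differ. Of the genes shown, only GSTM3 has a window that ends at its GENCODE start. The windows of the others reach past theirs, and that of GSTO1 lies wholly inside the GENCODE span of the gene.
GSTO1, chr10:104254642-104254891, plus strand: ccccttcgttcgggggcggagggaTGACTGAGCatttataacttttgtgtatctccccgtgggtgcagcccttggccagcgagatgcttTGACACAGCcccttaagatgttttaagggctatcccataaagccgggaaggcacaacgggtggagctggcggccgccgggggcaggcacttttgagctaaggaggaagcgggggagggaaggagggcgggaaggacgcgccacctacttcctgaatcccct
GSTP1, chr11:67583562-67583811, plus strand: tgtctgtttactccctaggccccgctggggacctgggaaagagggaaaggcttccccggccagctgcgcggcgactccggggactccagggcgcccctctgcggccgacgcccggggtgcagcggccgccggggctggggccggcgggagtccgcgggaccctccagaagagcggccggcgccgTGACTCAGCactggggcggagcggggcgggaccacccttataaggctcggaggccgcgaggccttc
GSTM2, chr1:109667807-109668056, plus strand: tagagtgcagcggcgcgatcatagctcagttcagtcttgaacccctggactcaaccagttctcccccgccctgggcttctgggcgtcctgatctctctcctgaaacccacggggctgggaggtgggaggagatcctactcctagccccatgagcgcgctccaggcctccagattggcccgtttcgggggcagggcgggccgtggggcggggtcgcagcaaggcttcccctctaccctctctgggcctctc
GSTM4, chr1:109655849-109656098, plus strand: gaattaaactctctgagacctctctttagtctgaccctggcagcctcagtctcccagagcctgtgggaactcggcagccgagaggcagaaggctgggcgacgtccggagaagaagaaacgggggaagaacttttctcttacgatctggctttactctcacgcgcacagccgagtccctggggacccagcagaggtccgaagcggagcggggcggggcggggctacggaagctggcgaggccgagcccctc
GSTM3, chr1:109741039-109741288, minus strand: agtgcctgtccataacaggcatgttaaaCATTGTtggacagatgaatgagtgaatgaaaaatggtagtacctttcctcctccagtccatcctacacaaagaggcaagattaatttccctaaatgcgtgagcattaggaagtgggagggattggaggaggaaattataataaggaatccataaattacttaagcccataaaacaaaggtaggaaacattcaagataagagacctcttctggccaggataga
The capitals in GSTO1 are 2 matches to the core of the antioxidant response element (TGACNNNGC), which begin 226 and 161 bases before the start. In GSTP1 they are 1 match to the same core, 66 bases before the start, which overlaps a match to the AP-1 site TGANTCA. Among 35116 RefSeq promoters of the same length, searched on both strands, 10.9% held the antioxidant core and 6.57% the AP-1 site. GSTO1 and GSTP1 were the 2 members with the antioxidant core. The capitals in GSTM3 are a match to a SOX core, ACAATG read on the other strand, which 9.29% of promoters held. One of the 3 MGST1 starts also had it. The octamer ATGCAAAT, which POU5F1 binds, was in 1.63% of promoters and was not in the windows of these 9 genes. The KLF box GGGNGTGG was in 15.7% of promoters and in those of GSTZ1 and MGST3. GSTM3 had 40.0% G and C and 1 CG pair, GSTM2 had 65.6% and 14, and GSTM4 had 62.4% and 18, against medians of 58% and 11 over all promoters. These matches describe the letters and do not show that a factor binds there.

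All 10 members passed the filter on low counts, which kept 15179 lines for edgeR's quasi-likelihood test with Benjamini-Hochberg adjustment over all of them. Against GFP, OSK changed 8 of 10 members, 5 higher and 3 lower, where 45.9% of all lines tested were past the threshold of 0.05 (23.1% higher, 22.8% lower). The GSTA4 group changed 3 of 10 against GFP, 2 higher and 1 lower, where 29.2% of all lines passed (14.7% higher, 14.6% lower), so its count was near the background. GFP differed from WT in 1 of 10, GSTM4, which was higher, where 22.2% of all lines passed (11% higher, 11.2% lower). The 3 libraries of each group did not overlap for 9 members in OSK against GFP, where this held for 54.7% of all lines. The same count was 6 in GSTA4 against GFP (42.3% of all lines), 4 in GFP against WT (34.6%), 7 in OSK against GSTA4 (58%), 5 in GSTA4 against WT (49%) and 6 in OSK against WT (53.5%). These counts describe a short list and are not a test of it. For OSK against GFP the members had a median absolute log2 fold change of 0.56, and all lines 0.31. For GSTA4 against GFP the members had 0.17, and all lines 0.22. The comparisons with GFP share the same 3 GFP libraries. In a test of any difference among the 4 groups, 9 of 10 members passed, where 66.9% of all lines did, and MGST3 was the member that missed it (edgeR adjusted p = 0.195).

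**Figure D1:**
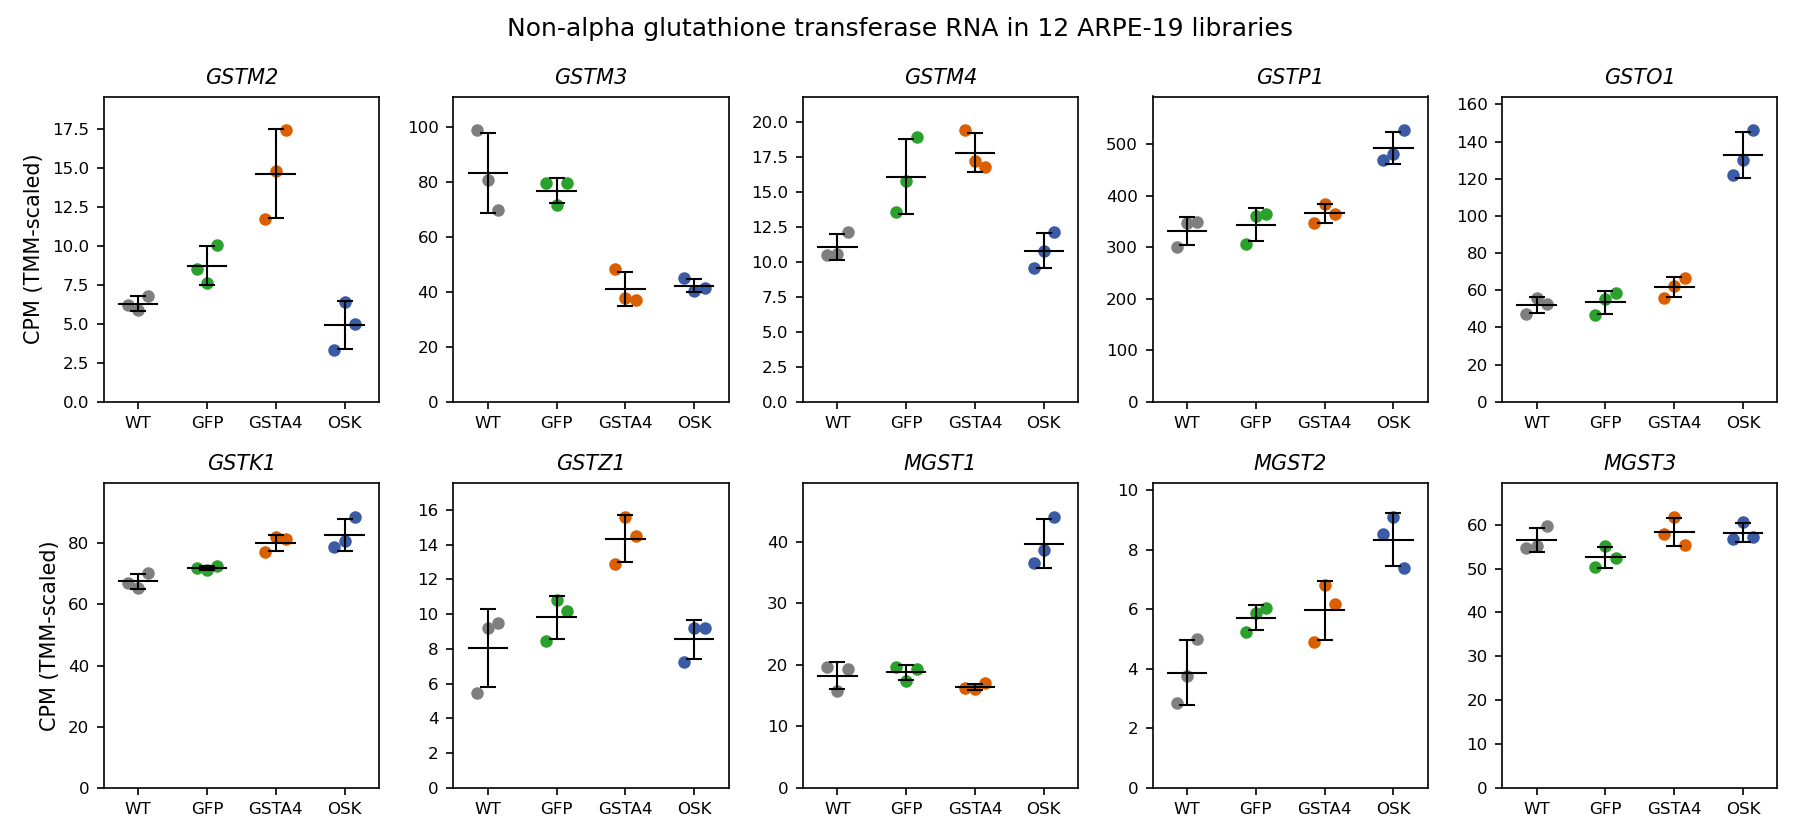
RNA level of each of the 10 transferase genes in CPM after TMM scaling (vertical axis, from 0, its own range per gene) in the WT, GFP, GSTA4 and OSK groups. Points are the 3 libraries of a group, the bar is their mean and the whiskers 1 SD. GSTO1, GSTP1 and MGST1 are highest in all 3 OSK libraries, GSTM2 and GSTZ1 in all 3 GSTA4 libraries, and GSTM3 is low in both GSTA4 and OSK.

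**Figure D2:**
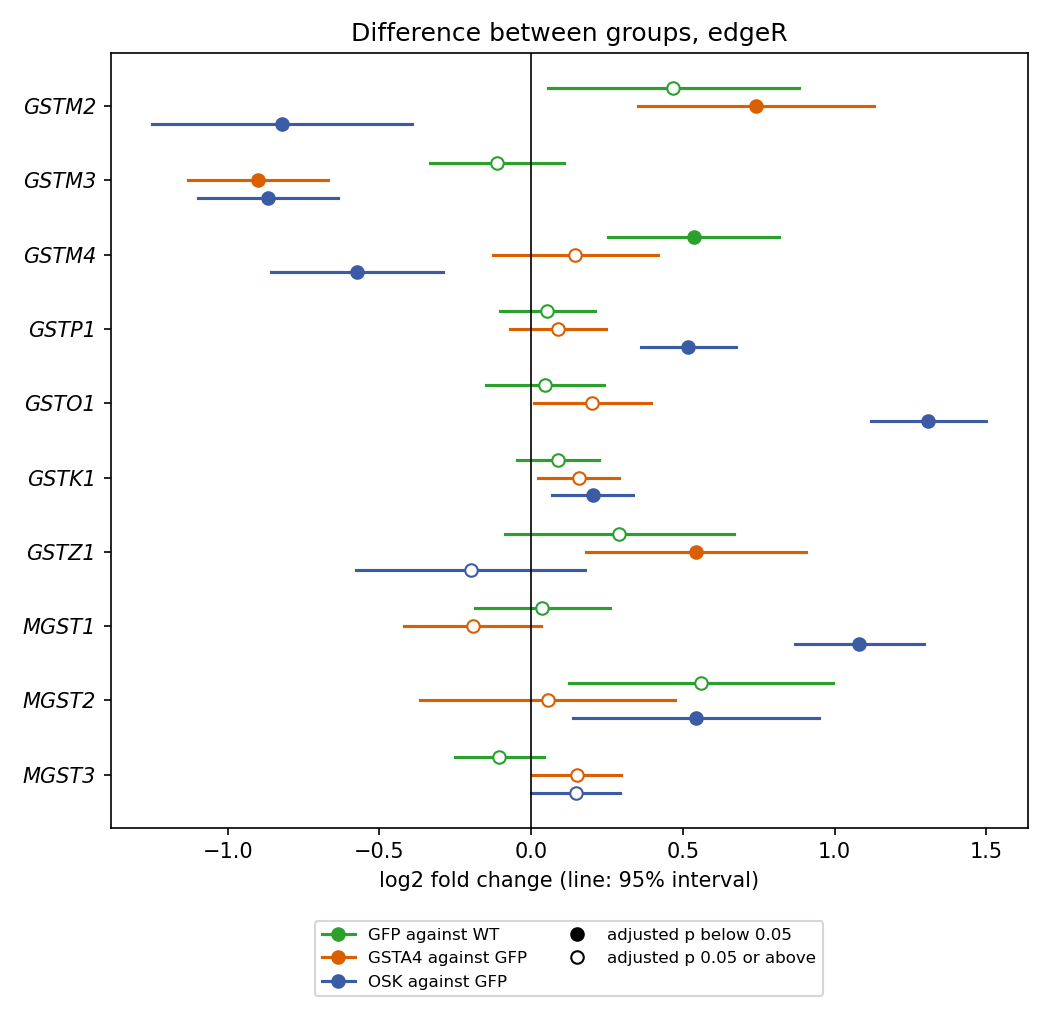
log2 fold change (horizontal axis) of each gene for GFP against WT, GSTA4 against GFP and OSK against GFP, with 95% intervals from edgeR as lines. Filled points have an adjusted p below 0.05. In OSK, GSTO1 and MGST1 lie furthest to the right and the 3 GSTM genes to the left, while GSTA4 has filled points for GSTM2, GSTZ1 and GSTM3.

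GSTO1 and GSTP1, of the omega and pi classes, rose in OSK, and neither passed the test in GSTA4 against GFP. GSTO1 encodes an omega enzyme that reduces oxidised thiols and dehydroascorbate, and its gene lies at chr10:104235356-104267459 (GRCh38, plus strand). It was at 47.4, 56.0 and 52.3 CPM in the WT libraries, 46.8, 55.1 and 58.6 in GFP, 55.9, 62.2 and 66.6 in GSTA4, and 122, 130.0 and 146 in OSK. The 3 OSK libraries stood above all 9 others, while the ranges of WT, GFP and GSTA4 overlapped. GSTO1 was 2.48-fold higher in OSK than in GFP (95% interval 2.17 to 2.83; log2 1.31, SE 0.0906; edgeR adjusted p = 2.32e-10) and 2.16-fold higher than in GSTA4 (adjusted p = 1.78e-09, edgeR). Between GSTA4 and GFP the log2 difference was 0.20, with an interval from 0.01 to 0.39 (edgeR adjusted p = 0.112). Against WT the GSTA4 group passed the test for GSTO1 at log2 0.25 (edgeR adjusted p = 0.0401), although its libraries overlapped those of WT. That call was lost in DESeq2 (adjusted p = 0.0706) and without WT replicate 1 (0.127) or 3 (0.0716), GFP replicate 2 (0.0556), GSTA4 replicate 2 (0.102) or 3 (0.191), or OSK replicate 2 (0.0539).

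GSTP1, the pi class enzyme, was the most abundant of the 10 per length of transcript. It lies at chr11:67583595-67586656 on the plus strand, and in GFP it had 358 ± 33.7 CPM per kilobase, where GSTK1, the next, had 68.8 ± 0.657. Its level was 300.1, 346 and 348 CPM in WT, 306, 360.3 and 365 in GFP, 348, 384 and 365 in GSTA4, and 469, 482 and 527 in OSK. Again the OSK libraries were above all others and the remaining groups overlapped. GSTP1 was 1.43-fold higher in OSK than in GFP (log2 0.52, 95% interval 0.36 to 0.67, edgeR adjusted p = 9.26e-06), and its difference in GSTA4 against GFP was log2 0.09 with an interval from -0.07 to 0.25. GSTP1 held 52.2 ± 1.80% of the reads of the 10 genes in GFP and 55.9 ± 0.347% in OSK. The summed level of the 10 was 881 ± 52.0 CPM in OSK and lower elsewhere, with 638 ± 22.1 in WT, 658 ± 42.5 in GFP and 676 ± 23.4 in GSTA4. In the GSTA4 group, GSTA4 reads made up 38.1 ± 0.693% of the reads on the 11 genes together, against 1.32 ± 0.0437% in GFP.

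Of the 3 membrane transferases, MGST1 and MGST2 rose in OSK. MGST1, an enzyme of the endoplasmic reticulum and outer mitochondrial membrane with glutathione peroxidase activity, is encoded at chr12:16347142-16609259 on the plus strand. It was at 19.7, 15.7 and 19.3 CPM in WT, 19.6, 17.3 and 19.4 in GFP, 16.2, 16.1 and 17.0 in GSTA4, and 36.5, 38.6 and 44.1 in OSK. Each OSK library was above the 9 others, and the GSTA4 libraries, all under those of GFP, lay within the range of WT. MGST1 was 2.12-fold higher in OSK than in GFP (95% interval 1.83 to 2.45, edgeR adjusted p = 2.61e-08) and 2.42-fold higher than in GSTA4 (adjusted p = 1.86e-09, edgeR). In GSTA4 against GFP it was at log2 -0.19, with an interval from -0.42 to 0.03 (edgeR adjusted p = 0.2).

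MGST2, a membrane enzyme that can also form leukotriene C4 and lies at chr4:139665768-139740745, had from 46 to 144 reads per library. Its level was 2.86, 3.74 and 5.02 CPM in WT, 5.25, 5.88 and 6.05 in GFP, 4.89, 6.83 and 6.19 in GSTA4, and 8.54, 9.12 and 7.39 in OSK. OSK was above every other library, and the 3 other groups formed a rising order of means in which no neighbours passed the test. MGST2 was 1.46-fold higher in OSK than in GFP (95% interval 1.10 to 1.93, edgeR adjusted p = 0.0276). The call was lost without GFP replicate 1 (adjusted p = 0.085) or 2 (0.0511), without OSK replicate 1 (0.06) or 2 (0.0964), with library size as the only scaling (0.0503) and in DESeq2 (0.052). Its difference of OSK from WT, log2 1.10, passed in all 20 alternatives, with adjusted p of at most 0.00126. MGST2 also passed in OSK against GSTA4 (log2 0.49, edgeR adjusted p = 0.0431). That call was lost without GSTA4 replicate 1 (adjusted p = 0.18) or 3 (0.073), without OSK replicate 1 (0.0825) or 2 (0.14), with library size alone (0.0714) and in DESeq2 (0.0789). In GSTA4 against WT it passed at log2 0.61 (edgeR adjusted p = 0.0236), and not without WT replicate 1 (0.121) or 2 (0.0584), without GSTA4 replicate 2 (0.103) or 3 (0.0681), or with the 6 libraries of these groups alone (0.0599). In GFP against WT it missed the threshold (adjusted p = 0.0602, edgeR) and passed without WT replicate 3 (0.0149). An exon of MGST2 overlaps the span of MAML3 on the opposite strand, and overlap with MAML3 exons was not tested. MAML3 was at 4.48 ± 0.367 CPM in GFP and 4.36 ± 0.314 in OSK (log2 -0.04, edgeR adjusted p = 0.879).

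MGST3, the third of the family, at chr1:165630861-165661796, differed least. It was at 54.6, 55.2 and 59.7 CPM in WT, 50.3, 55.1 and 52.4 in GFP, 57.8, 61.8 and 55.5 in GSTA4, and 56.7, 60.6 and 57.3 in OSK. Both GSTA4 and OSK had all 3 libraries above those of GFP, by log2 0.15 in each case, and neither passed (edgeR adjusted p = 0.122 and 0.0968). Between OSK and GSTA4 the 95% interval of the log2 difference ran from -0.15 to 0.14. The coding sequences of the MGST genes were 50.3% to 52.6% identical in pairs, and none of the 100-base stretches of their main transcripts was found in a transcript of another gene.

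The mu class genes lie close together on chromosome 1. All 3 fell in OSK against GFP, while in GSTA4 against GFP GSTM3 fell, GSTM2 rose and GSTM4 did not pass the test. GSTM3, on the minus strand at chr1:109733932-109741038, was at 98.9, 80.8 and 70.0 CPM in WT, 79.7, 71.7 and 79.6 in GFP, 48.2, 38.0 and 37.2 in GSTA4, and 45.0, 40.5 and 41.3 in OSK. Every GSTA4 and OSK library was below every WT and GFP library, and those of GSTA4 and OSK overlapped. GSTM3 fell to 0.535 of its GFP level in GSTA4 (95% interval 0.456 to 0.628; log2 -0.90, SE 0.110; edgeR adjusted p = 2.56e-06). In OSK it fell to 0.548 of that level (95% interval 0.468 to 0.643, edgeR adjusted p = 1.69e-06). The log2 difference of OSK from GSTA4 was 0.03, with an interval from -0.20 to 0.27.

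GSTM2 went opposite ways in GSTA4 and OSK. The gene, on the plus strand at chr1:109668022-109709551, was at 6.22, 5.87 and 6.79 CPM in WT, 8.52, 7.60 and 10.1 in GFP, 11.7, 14.8 and 17.4 in GSTA4, and 3.34, 6.39 and 4.99 in OSK. All GSTA4 libraries were above those of GFP, all OSK libraries were below them, and OSK overlapped WT. The difference of OSK from WT did not pass (log2 -0.35, edgeR adjusted p = 0.184), and passed without OSK replicate 2 (0.0435). GSTM2 was 1.67-fold higher in GSTA4 than in GFP (95% interval 1.28 to 2.19; log2 0.74, SE 0.186; edgeR adjusted p = 0.00477). In OSK it fell to 0.566 of the GFP level (95% interval 0.421 to 0.762, edgeR adjusted p = 0.00257). The difference of OSK from GSTA4, tested directly, was log2 -1.56 (SE 0.197, edgeR adjusted p = 1.24e-06), the largest of the 10 genes in that comparison. In all, 7 of 10 members passed in OSK against GSTA4, 4 higher and 3 lower, where 47.8% of all lines did (24.1% higher, 23.8% lower).

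GSTM4, on the plus strand at chr1:109656081-109674836, was the one member past the threshold in GFP against WT. Its levels were 10.5, 10.6 and 12.2 CPM in WT, 13.5, 15.8 and 18.9 in GFP, 19.4, 17.2 and 16.8 in GSTA4, and 9.53, 10.8 and 12.1 in OSK. GFP and GSTA4 were above every WT and OSK library, and within each of these pairs of groups the libraries overlapped. It was 1.45-fold higher in GFP than in WT (95% interval 1.19 to 1.76, edgeR adjusted p = 0.00736), a call lost without GFP replicate 3 (adjusted p = 0.0553). In OSK it fell to 0.671 of the GFP level (95% interval 0.551 to 0.817, edgeR adjusted p = 0.00163). OSK and WT differed by log2 -0.04, with an interval from -0.33 to 0.25.

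Summed over the 3 mu genes, WT had 101 ± 13.7 CPM and GFP 102 ± 6.75, while GSTA4 had 73.6 ± 5.03 and OSK 57.9 ± 0.401. GSTM3 held 75.7 ± 2.50% of these reads in GFP, 55.7 ± 4.53% in GSTA4 and 72.9 ± 4.20% in OSK. The sum of GSTM2 and GSTM4 was 24.8 ± 3.66 CPM in GFP, 32.4 ± 1.61 in GSTA4 and 15.7 ± 2.45 in OSK. These shares are of reads, and the main GSTM3 transcript is the longest, with 4046 bases against 1157 for GSTM2 and 1412 for GSTM4. Per kilobase in the GSTA4 group, GSTM2 had 12.6 ± 2.47 CPM, GSTM4 12.6 ± 0.989 and GSTM3 10.2 ± 1.52, and in WT they had 5.44 ± 0.397, 7.85 ± 0.659 and 20.6 ± 3.61.

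Reads of GSTM2 and GSTM4 are uncertain in their origin. In GENCODE v29, annotated exons of GSTM2 overlap the spans of GSTM4 and GSTM1 on the same strand, and overlap between exons was not tested. Of the 100-base stretches of the main GSTM2 transcript, 63.6% also occur in transcripts of another gene, as do 4.49% of those of GSTM4 and 0% of those of GSTM3. For 50-base stretches the shares were larger, with 74.5% for GSTM2, 18.6% for GSTM4 and 1.45% for GSTM3. Coding sequences of GSTM2 and GSTM4 were 89.1% identical, and those of GSTM2 and GSTM3 70.1%. GSTM1 itself, chosen here after its values were seen, had 7.79 ± 2.30 CPM in WT and 10.1 ± 1.28 in OSK, with 12.6 ± 0.200 in GFP and 14.2 ± 1.37 in GSTA4. It was higher in GFP than in WT (log2 0.70, edgeR adjusted p = 0.00626) and did not pass in GSTA4 against GFP (log2 0.17, edgeR adjusted p = 0.484). How the submitters treated reads that fit several genes is not given in the sources used here. On the opposite strand, exons of GSTM3 overlap the spans of GSTM5 and of the antisense gene AL158847.1. Likewise, exons of GSTK1 overlap the span of the antisense gene AC073342.1, and those of MGST1 the span of LMO3. GSTM5 had group means of at most 0.203 CPM and LMO3 of at most 0.173. The levels of the 2 antisense genes are not given here.

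**Figure D3:**
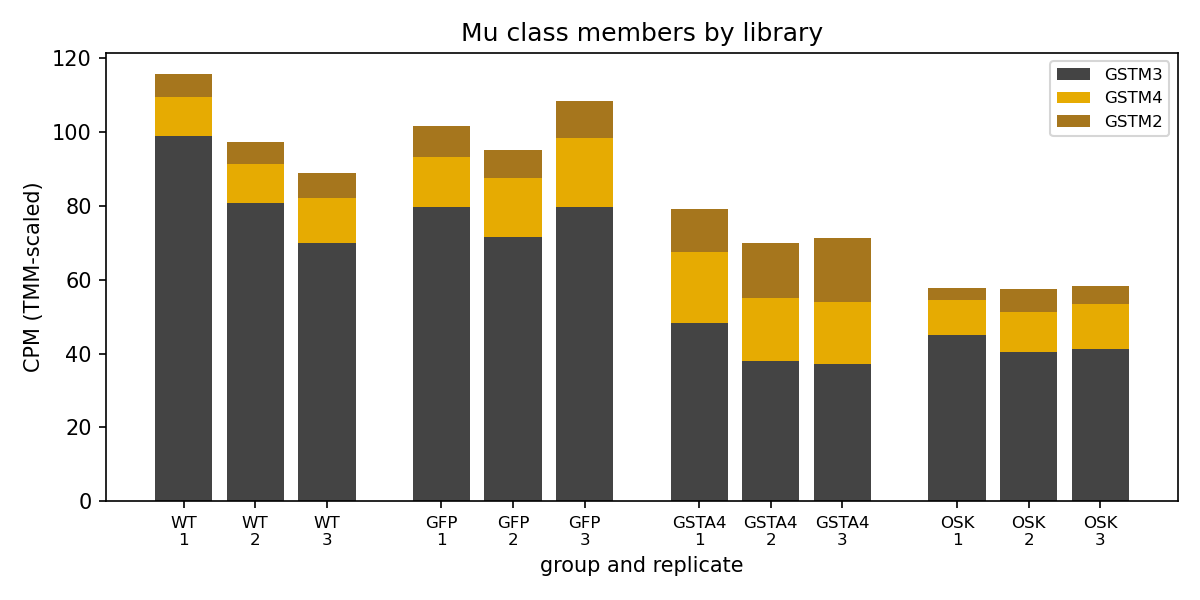
Stacked CPM after TMM scaling (vertical axis, from 0) of the mu class genes GSTM3, GSTM4 and GSTM2 in each of the 12 libraries, by group and replicate. The GSTM3 part is 77.0 CPM on average in GFP and 41.1 in GSTA4, where the GSTM2 part is at its largest, 14.6, and in OSK all 3 parts are smaller than in GFP.

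GSTZ1 was highest in the GSTA4 group, and GSTK1 differed little between GSTA4 and OSK. GSTZ1 is the zeta enzyme that isomerises maleylacetoacetate in the breakdown of tyrosine, and it lies at chr14:77320884-77331597 on the plus strand. It was at 5.47, 9.18 and 9.50 CPM in WT, 8.44, 10.8 and 10.2 in GFP, 12.9, 15.6 and 14.5 in GSTA4, and 7.26, 9.18 and 9.22 in OSK. The 3 GSTA4 libraries were above all 9 others, which overlapped. GSTZ1 was 1.46-fold higher in GSTA4 than in GFP (95% interval 1.13 to 1.87; log2 0.54, SE 0.174; edgeR adjusted p = 0.0231). This call was lost without GFP replicate 1 (adjusted p = 0.108), GSTA4 replicate 2 (0.089) or GSTA4 replicate 3 (0.0603). Against WT and OSK the GSTA4 group was higher in all 20 alternatives (log2 0.83 against WT, edgeR adjusted p = 0.000778). An exon of GSTZ1 overlaps the span of POMT2 on the opposite strand, and overlap with POMT2 exons was not tested. The kit named in the labels is not stated to keep strand. POMT2 was at 41.3 ± 2.77 CPM in GFP and 39.2 ± 1.25 in GSTA4 (log2 -0.07, edgeR adjusted p = 0.556).

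GSTK1, the kappa enzyme, at chr7:143244093-143270854 on the plus strand, had close replicates and small differences. It was at 67.1, 65.4 and 70.2 CPM in WT, 71.9, 71.2 and 72.6 in GFP, 77.1, 82.1 and 81.2 in GSTA4, and 78.8, 80.7 and 88.6 in OSK. Every library of GSTA4 and OSK was above every library of WT and GFP. OSK was 1.15-fold higher than GFP (95% interval 1.05 to 1.26, edgeR adjusted p = 0.0132), a call lost with library size as the only scaling (adjusted p = 0.108) and without OSK replicate 3 (0.0811). GSTA4 was 1.11-fold higher than GFP and did not pass (95% interval 1.02 to 1.22, edgeR adjusted p = 0.0721). OSK and GSTA4 overlapped, with a log2 difference of 0.05 (95% interval -0.09 to 0.18, edgeR adjusted p = 0.586) that was -0.018 with library size alone. Against WT both passed, GSTA4 by log2 0.25 and OSK by log2 0.29 (edgeR adjusted p = 0.0044 and 0.000795).

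In the order of the 4 group means, 8 of the 30 neighbouring pairs passed the test. Those 8 set OSK above the next group for GSTP1, GSTO1, MGST1 and MGST2, GSTA4 above GFP for GSTM2 and GSTZ1, GFP above OSK for GSTM3, and GFP above WT for GSTM4. GSTK1 and MGST3 had no neighbours that passed. Against WT, 7 of 10 members passed in GSTA4 (6 higher, 1 lower) where 38.6% of all lines did (19.7% higher, 19% lower). In OSK 6 of 10 passed against WT (5 higher, 1 lower), where 45.4% of all lines did (22.7% in each direction). With library size as the only scaling, the median log2 fold change of all lines in OSK against GFP moved from -0.02 to -0.09. Among the lines past the threshold, the share that were higher went from 50.4% to 39.8%. The members went from 5 higher and 3 lower to 3 higher and 3 lower.

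Genes that supply glutathione, remake it and use it were counted in the same comparisons. Their counts stand beside the share of all lines past the threshold, which for OSK against GFP was 45.9% (23.1% higher, 22.8% lower). Of 17 genes of synthesis, recycling and precursor supply, 7 were higher and 2 lower in OSK against GFP, a share near the 45.9% of all lines (median log2 0.20, where all lines were at -0.02). SLC7A11, the cystine importer, rose by log2 3.12 (SE 0.259), CTH, which makes cysteine from cystathionine, by 2.08 (SE 0.226), and GSR, which reduces oxidised glutathione, by 1.18 (SE 0.0754). In GSTA4 against GFP, 1 was higher, OPLAH (log2 0.43), and 2 were lower, SLC3A2 (-1.03) and IDH1 (-0.28), with a list median of 0.09 where all lines were at 0.01, and this count was below the 29.2% of all lines. SLC3A2 is the heavy chain that carries SLC7A11 to the membrane.

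Among 15 other enzymes that use glutathione, 9 were higher and 4 lower in OSK against GFP, where 45.9% of all lines passed, led by GLRX, a glutaredoxin (log2 2.94, SE 0.133), and PRDX6, a peroxiredoxin (1.64, SE 0.0598), with the secreted peroxidase GPX3 lower (-1.17, SE 0.0720). In GSTA4 against GFP, 3 were higher and 1 lower, with the cytosolic peroxidase GPX1 at log2 1.18 (SE 0.0829), TXNDC12 at 0.41 (SE 0.129) and GPX3 at -1.58 (SE 0.0729), where 29.2% of all lines passed. The list medians were 0.25 and 0.15. Of 20 genes of conjugate export and mercapturate formation, 11 passed the filter. In OSK 4 of these were higher and 2 lower, near the 45.9% of all lines, with the export pumps ABCC3 at 1.59 (SE 0.208) and ABCC1 at 1.18 (SE 0.0608) and ABCC4 at -0.68 (SE 0.115). In GSTA4 3 were higher and 2 lower, where 29.2% of all lines passed, with GGT7 at 0.41, CNDP2 at 0.26 and ABCC4 at -0.53. The medians of the 11 were -0.0039 and 0.19. All these differences are from GFP. ABCC3 had means of 10.8 CPM in WT, 2.93 in GFP and 8.76 in OSK, so that OSK was not above WT. ABCC1 had means of 308, 290.3 and 659.7 CPM in the same order, and ABCC4 of 92.1, 59.0 and 36.9.

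Of 25 tested NRF2 regulators and core targets, 11 were higher and 4 lower in OSK against GFP, where 45.9% of all lines passed (median log2 0.19), SLC7A11 and ABCC1 among the former and TXNRD1, a thioredoxin reductase (-0.81, SE 0.0564), among the latter. In GSTA4, 5 were higher and 5 lower, where 29.2% of all lines passed (median -0.01), and SRXN1 (-1.07, SE 0.316), PIR (-0.97, SE 0.313) and NQO1, a quinone reductase (-0.87, SE 0.119), had the largest differences. GFP against WT had 1 higher and 8 lower in this list, where 11% of all lines were higher and 11.2% lower. Of the 6 tyrosine breakdown genes, HPD, GSTZ1 and FAH passed the filter. Against GFP, HPD, an earlier enzyme of the pathway, was higher in GSTA4 (log2 1.12, SE 0.200) and in OSK (3.14, SE 0.189). FAH, which acts after GSTZ1, was lower in OSK than in GFP (-0.96, SE 0.189). Its means were 6.78 CPM in WT, 10.8 in GFP and 5.56 in OSK, and the WT and OSK libraries overlapped. Of 6 other transferases and MAPEG relatives tested, PTGES, a prostaglandin E synthase, was lower than in GFP both in GSTA4 (-0.49, SE 0.0824) and in OSK (-1.31, SE 0.0848). GSTO2, the other omega gene, was higher in OSK than in GFP (0.58, SE 0.144). GSTA4 was the one alpha class gene that passed the filter, and it was higher than in GFP in OSK too (log2 1.20, SE 0.127). All adjusted p-values of the genes named in these lists were below the threshold in edgeR, the highest being 0.0239, for PIR.

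**Figure D4:**
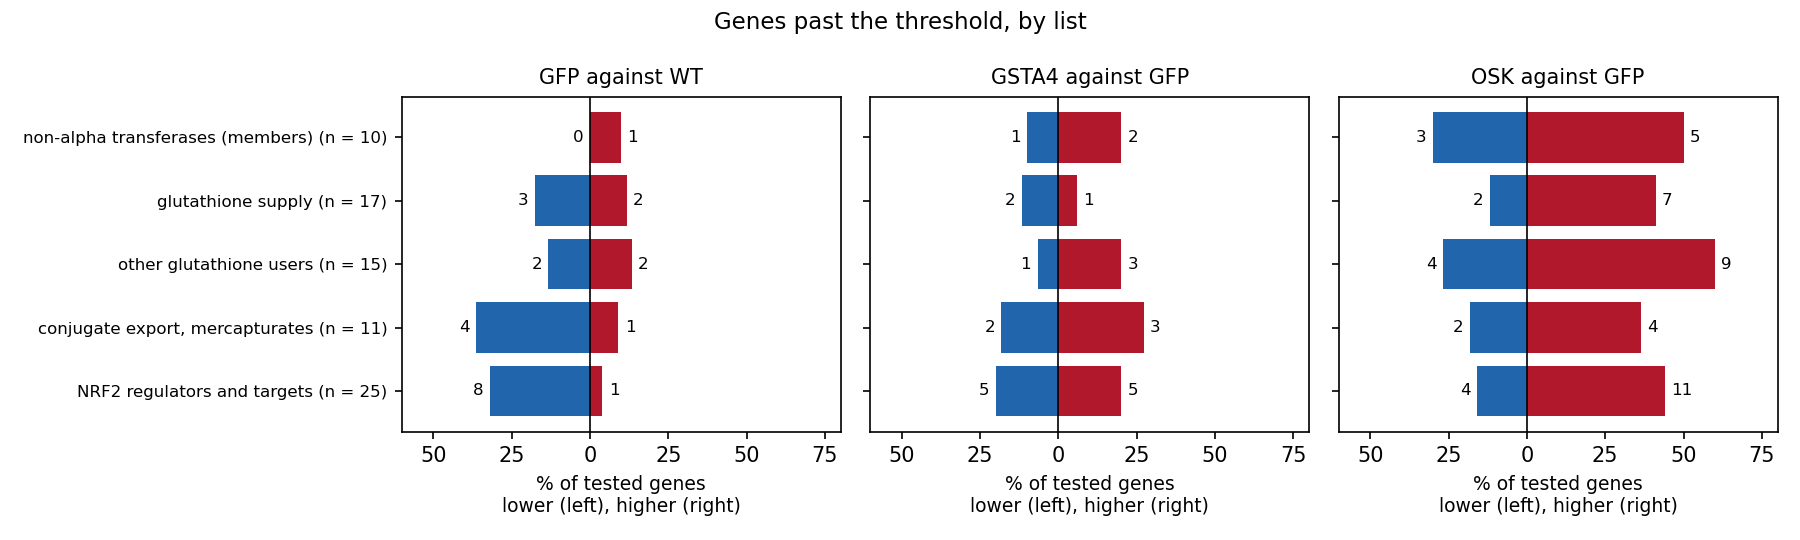
Share of the tested genes of 5 lists that passed the test (edgeR adjusted p below 0.05), higher to the right and lower to the left, for GFP against WT, GSTA4 against GFP and OSK against GFP. The horizontal axis is the percent of tested genes, the number at each bar is the count of genes, and n is the number tested. In OSK against GFP each list has more genes higher than lower. OSK against WT is not drawn. There the counts higher and lower were 5 and 1 for the members, 6 and 4 for supply, and 6 and 4 for other users. For conjugate export they were 3 and 4, and for the NRF2 list 8 and 8, where 45.4% of all lines passed.

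Over the 12 libraries, the levels of some members ran close to each other. GSTP1 and GSTO1 had a Pearson r of 0.97 on log2 CPM, GSTO1 and MGST1 0.92, GSTM2 and GSTM4 0.84, GSTM2 and GSTM3 -0.22, and GSTM3 and GSTK1 -0.91. Among 9289 protein-coding genes with a mean of at least 10 CPM, those nearest to GSTO1 were GSR and CLIC1 (r = 0.990 for both), and those nearest to GSTP1 were DDOST (0.997) and H3-3B (0.991). GLT8D1 and RPRM were nearest to MGST1 (0.986 for both), TEX2 (0.969) and CRB2 (0.967) to GSTM3, SDC3 (0.958) and BLOC1S6 (0.952) to GSTM2, and SLC2A4RG (0.962) and PABPC4 (0.951) to GSTM4. UTP14A (0.973) and RHOC (0.968) were nearest to GSTZ1, MYD88 (0.957) and NRP1 (0.946) to GSTK1, and PDK3 (0.962) and CLTC (0.958) to MGST2. The 12 points share 4 groups, so these values describe the likeness of group levels in these libraries and carry no test.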

How the data were processed

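RNA of 12 ARPE-19 libraries was analysed from the deposited table of raw read counts per gene, whole numbers that the authors did not normalize. The submitters' processing notes name STAR 2.7.1a, featureCounts 1.6.2 and the builds GRCh38 (hg38) and GRCm38 (mm10). Annotation release, strand setting and the treatment of multi-mapping reads are not given in the sources used here. Groups came from the labels, and columns were matched by library name. Lines without a symbol (20014, with 0.485% to 0.822% of reads) were left out.

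Named lines were filtered with filterByExpr, scaled by TMM and fitted with edgeR 4.0.16 (limma 3.58.1, R 4.3.3) in 1 quasi-likelihood fit of all 12 libraries with a mean per group (8 residual and 12 prior degrees of freedom). P-values are two-sided and Benjamini-Hochberg adjusted over 15179 lines, with 0.05 as the threshold. CPM use the TMM-scaled totals, and SDs are over n = 3. Fold change intervals are 95%. The fit was tested on simulated data. Alternatives were 8 other settings, DESeq2 1.42.0 among them, and each of the 12 libraries left out. Coordinates, transcript lengths and overlaps are from GENCODE v29, whose match to the authors' annotation is unknown. Floors cover counting error only, since no molecular identifiers are stated.

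The members, the gene lists and the tests were chosen with earlier results of these data known. All 10 members were named. From each other list up to 3 genes were named, those past the threshold with the largest absolute log2 fold change and a mean of at least 1 CPM, in GSTA4 and in OSK against GFP. The 2 genes most like each member are by Pearson correlation of log2 CPM.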

Additional observations from a re-analysis of the deposited data

How the results depend on the processing

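The number of members past the threshold stayed within 1.5 times of the reported one under all alternatives run, except in GFP against WT. There 1 member passed, 2 did with the replicate number as a block, and from 0 to 2 did when 1 library was left out (0 without GFP replicate 3, 2 without WT replicate 3). Whether the replicate numbers pair the samples is not settled here. Deviations of same-numbered libraries correlated from -0.0193 to 0.153 within the 6 comparisons, and low correlations cannot exclude a pairing. The largest were those of WT replicate 1 with replicate 1 of GFP (0.153), GSTA4 (0.12) and OSK (0.106). With the replicate block, 4 members passed in GSTA4 against GFP and 8 in GSTA4 against WT, where 3 and 7 were reported. The members added were GSTO1 in GSTA4 against GFP (log2 0.20, adjusted p = 0.0235 in edgeR), GSTP1 in GSTA4 against WT (0.14, 0.0446) and MGST2 in GFP against WT (0.56, 0.0438).

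Log2 fold changes that turned sign had not passed the test and were near 0. MGST3 in OSK against GSTA4, reported at -0.0031, was 0.012 with DESeq2 size factors, 0.0035 with no filter, and 0.014 both in DESeq2 and with all lines. With library size alone, GSTM3 was -0.029 and GSTK1 -0.018 in OSK against GSTA4, and MGST3 was -0.025 in OSK against WT. The others turned when 1 library was left out. In GSTA4 against GFP, MGST2 ran from -0.047 to 0.19. In GFP against WT, GSTM3 ran from -0.23 to 0.028, GSTP1 from -0.018 to 0.13, GSTO1 from -0.025 to 0.13 and MGST1 from -0.059 to 0.092. In OSK against GSTA4, GSTM3 ran from -0.034 to 0.17 and MGST3 from -0.039 to 0.039. In OSK against WT, GSTM4 ran from -0.12 to 0.050 and GSTZ1 from -0.13 to 0.24. The cause was not tested. MGST2, with 46 to 144 reads per library, had the widest interval of the 10 in GSTA4 against GFP.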

Other observations

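Genes near some members on the chromosome were described in windows chosen after the data were seen. Within 1000000 bases of GSTO1, 13 other tested genes had a median log2 fold change of 0.05 in OSK against GFP, where GSTO1 was at 1.31. Of these, 3 were higher and 1 lower, where 45.9% of all lines passed. In the same comparison, 6 genes around MGST1 had a median of 0.22, where MGST1 was at 1.08, and 3 were higher and 1 lower. Around GSTP1, 42 genes had a median of 0.08 there, where GSTP1 was at 0.52, and 14 were higher and 12 lower. Around GSTM3, 30 genes had a median of -0.01 in GSTA4 against GFP, with 3 higher and 6 lower, where GSTM3 was at -0.90. In that comparison 29.2% of all lines passed. These windows were compared by their values only.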
